A study of Mus musculus with 8 samples.

Results

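Of 30570 CTCF regions found in both control and NMDA-treated cortical neurons, 658 lay where the ends of 2 or more protein-coding genes almost meet. A region was taken when it overlapped a control region by at least 1 bp and its summit in the NMDA list was within 1 kb of an end of at least 2 different genes (RefSeq spans, GRCm38.p6). The 4732 shared regions within 1 kb of the end of exactly 1 gene, called 1-gene regions below, served for comparison. Beyond the call of a region in both lists, signal played no part in the choice.

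CTCF binding was mapped by ChIP-seq in primary wild-type neurons from embryonic day 16 Swiss-Webster mice on day 13 in vitro. Treated cultures were bathed for 10 minutes in 50 µM NMDA, an agonist of 1 class of glutamate receptor, and then had 50 minutes in drug-free medium. Control cultures carry no treatment in their labels. The 8 samples comprise ChIP and input libraries of both conditions, 4 groups of 2 replicates each, and the submitters made 1 list of reproducible regions for each condition. A growth protocol common to all samples also mentions etoposide, which no label assigns to any sample. Neurons were dissociated from cortex, and the lists hold no reading of other cell types in the cultures. Each condition enters as 1 list, and a change between the conditions has no replicate spread to be judged by. Read depth is unknown because the lists hold no counts. The NMDA list has 1 column of signal for each replicate, and the control list has none.

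The zinc finger protein CTCF recognises a long, well-defined DNA motif and, with the ring-shaped cohesin complex, holds the bases of chromatin loops. Besides loop anchors it is often found at promoters. Genes whose ends adjoin fall into 3 layouts. In divergent pairs the starts adjoin and transcription runs outward, often from 1 shared CpG-rich promoter. In convergent pairs the 3′ ends adjoin, and in tandem pairs the 3′ end of the upstream gene adjoins the start of the next.

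The letters around the summits show how varied these regions were. RefSeq promoter windows (GRCm38.p6, 250 bases before to 50 bases after a start) held the NMDA summit of 190 of the 658 regions. Each window was searched on both strands for the 12-letter core of the CTCF motif, given here by name since it needs ambiguity letters. An exact match was found in 9 windows. These are all 9, shown because they are the closest matches to the core in these windows. Each is given 5′ to 3′ on the strand of the match, with the core in capitals and up to 4 flanking bases. Not all lay at the summit: 5 of the 9 were within 50 bp of it, and the match at Slc35b2 and Nfkbie was 130.5 bp away.
Lsm11 and Thg1l, tandem (chr11:45945023-45945042, plus strand): gcggCCACCAGGGGGCagca
Nae1 and Car7, divergent (chr8:104534657-104534676, plus strand): gcagCCAGTAGGGGGCgccg
C1qbp and Dhx33, tandem (chr11:70983083-70983102, minus strand): gctcCCAGCAGAGGGCgcgg
Slc35b2 and Nfkbie, tandem (chr17:45563726-45563745, plus strand): tagtCCACTAGATGGCaatg
Cryz and Tyw3, divergent (chr3:154596628-154596647, plus strand): ccggCCACCAGGGGGCagcg
Tns1 and Rufy4, divergent (chr1:74125301-74125320, minus strand): gttgCCAGTAGATGGCggaa
Hsd3b7 and Setd1a, tandem (chr7:127800504-127800523, plus strand): ctggCCACCAGGGGGCactc
S100a6 and S100a5, tandem (chr3:90612788-90612807, plus strand): cttgCCACTAGAGGGCaaca
Ap1g2 and Jph4, tandem (chr14:55106757-55106776, plus strand): caccCCACCAGGTGGCactc

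Some of the strongest regions had no exact match. The closest match in the windows of 6 of them is shown here, in capitals, to set beside the exact matches. In the order listed, they carried 2, 1, 2, 1, 1 and 1 mismatches to the core.
Exosc8 and Alg5, divergent (chr3:54735468-54735487, plus strand): acggCCAGGCGGGGGCgctg
Adprhl2 and Tekt2, tandem (chr4:126321744-126321763, minus strand): cgggCCACAAGGGGGCgctg
Mrps16 and Cfap70, tandem (chr14:20393564-20393583, minus strand): ccggCCGCTTGGGGGCgctc
Slx1b and Bola2, divergent (chr7:126695759-126695778, minus strand): cctgCCAGCAGGCGGCgcag
Chd1l and Fmo5, divergent (chr3:97610219-97610238, plus strand): accgCCGCCAGAGGGCgcag
Zfp398 and Zfp786, divergent (chr6:47835593-47835612, plus strand): ggggCCGCCAGGGGGCgcgc

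Whole stretches between divergent starts, on the plus strand, are given for 3 pairs that differ in length and signal. The gap is 174 bases for Exosc8 and Alg5, 37 for Nae1 and Car7, and 80 for Rad1 and Brix1. In the first and second the capitals mark the closest core match of the promoter window. For Rad1 and Brix1 that match, with 4 mismatches, lies outside the gap.
Exosc8 to Alg5 (chr3:54735365-54735538): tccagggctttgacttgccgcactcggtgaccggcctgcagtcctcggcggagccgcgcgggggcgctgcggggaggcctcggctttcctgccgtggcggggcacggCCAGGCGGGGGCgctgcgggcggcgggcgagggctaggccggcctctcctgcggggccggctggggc
Nae1 to Car7 (chr8:104534657-104534693): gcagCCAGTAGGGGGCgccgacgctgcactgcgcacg
Rad1 to Brix1 (chr15:10485938-10486017): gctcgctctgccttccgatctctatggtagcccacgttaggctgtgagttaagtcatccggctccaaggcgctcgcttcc
Guanine and cytosine made up 79.9% of the first gap, 75.7% of the second and 58.8% of the third. Signal here is the authors' −log10 p of a region, summed over the 2 replicates. Exosc8 and Alg5 had a signal of 1305 in the NMDA list, Nae1 and Car7 764, and Rad1 and Brix1 50.0.

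Divergent starts were the most frequent layout. Strand, read from the RefSeq promoter table, was known for both nearest genes in 487 of the 658 regions, and 276 of these (56.7%) lay at a divergent pair. Tandem pairs accounted for 117 (24.0%) and convergent pairs for 68 (13.96%). In 11 regions the nearest ends were of the same kind on the same strand, and in 15 they belonged to opposite strands but were unlike. The other 171 regions, which include all 13 on chromosome 18, had no strand for at least 1 gene. Gene spans were apart in 422 regions, overlapped in 217 and were nested in 19.

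Nearly all regions had exactly 2 genes at hand, 647 of 658. A further 10 had 3 genes, and 1 region had 24. That region (chr18:37840780-37841860) lay at the common 3′ end of 21 gamma protocadherin genes, which encode adhesion proteins that give neurons their surface identity, and of 3 predicted genes. It had a signal of 129 in the NMDA list (61.9 and 66.8 in the replicate columns) and 188 in the control list, so it sat near the middle of both. The 658 regions touched 1290 different genes, of which 58 lay at 2 regions and 0 at 3. Members were densest on chromosome 8, with 4.79 per 100 genes, compared with 0.518 per 100 genes on X and 0 members on Y. The 1-gene regions were sparse on X and Y as well, with 89 for 966 genes on X and 1 for 256 genes on Y. Chromosome 8 had 249 of them for 1043 genes.

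The ends of the paired genes were close together. The median distance between them was 157 bp (quartiles 62.8 and 356) in divergent, 374 bp in tandem and 331 bp in convergent pairs. The NMDA summit lay a median of 214 bp from the nearest gene end, compared with 324 bp in 1-gene regions. Having 2 ends to be near shortens that distance by itself. Divergent summits had a median of 181 bp and tandem summits 167 bp, while convergent summits lay 319 bp away. The summit fell between the ends in 21.7% of divergent, 49.6% of tandem and 38.2% of convergent regions, whose gaps differed in length. Of the tandem summits, 86 were nearer the downstream start and 31 nearer the upstream 3′ end.

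**Figure D1:**
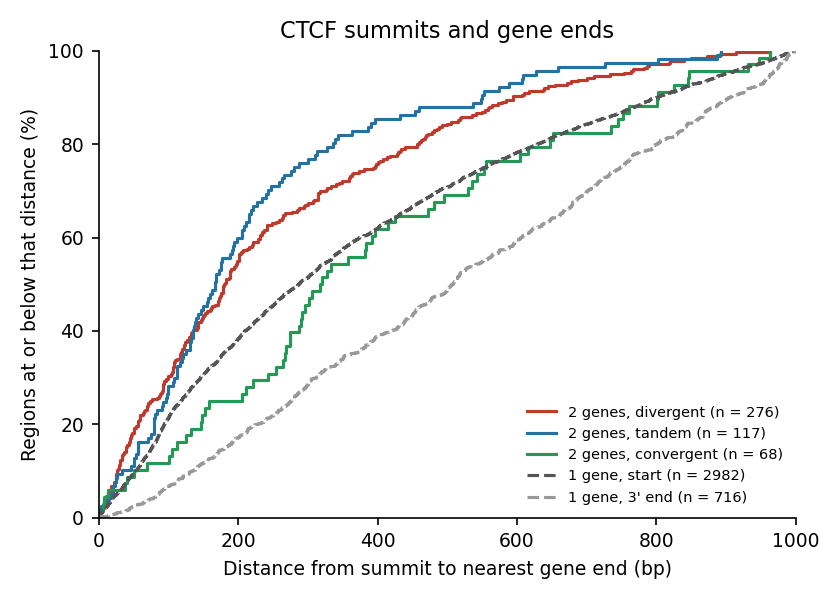
Cumulative share of regions (y axis, percent) by distance in bp from the NMDA summit to the nearest gene end (x axis), for divergent, tandem and convergent regions and for 1-gene regions at a start or a 3′ end. Tandem and divergent curves rise first, with medians of 167 and 181 bp, and the curve for 1-gene regions at a 3′ end rises last.

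The 1 kb limit fell among regions of varied signal. Just inside it, with the farther end at 1000 bp, Rnf170 and Hook3 had a signal of 101 in the NMDA list and 151 in the control list, and Galnt4 and Poc1b had 76.6 and 157. Just outside, with the farther end at 1002 bp, Tmem102 and Fgf11 had 464 and 975, and Vegfc and Gm33153 had 68.5 and 123.

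Divergent pairs also carried CTCF more often, counted from the genes rather than from the regions. Of 1005 divergent gene pairs in the annotation with ends up to 2 kb apart, 279 (27.8%, 95% Wilson interval 25.1 to 30.6) had a shared region near both ends. The share was 13.2% (11.1 to 15.6) of 902 tandem pairs and 6.77% (5.40 to 8.45) of 1049 convergent pairs. Divergent pairs exceeded convergent pairs by 20.99 percentage points (95% Newcombe interval 17.8 to 24.2) and tandem pairs by 14.6 points (10.99 to 18.1). Divergent ends also lie closer together. Among pairs less than 250 bp apart, 29.8% of 605 divergent and 25.6% of 164 tandem pairs had a region, and the interval of that difference, −3.85 to 11.3 points, included 0. Divergent pairs exceeded tandem pairs by 13.04 points (2.83 to 22.6) at 250 to 500 bp and by 10.1 points (1.05 to 19.9) at 500 to 1000 bp. Divergent pairs less than 250 bp apart exceeded convergent ones by 20.0 points (14.9 to 24.6).

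**Figure D2:**
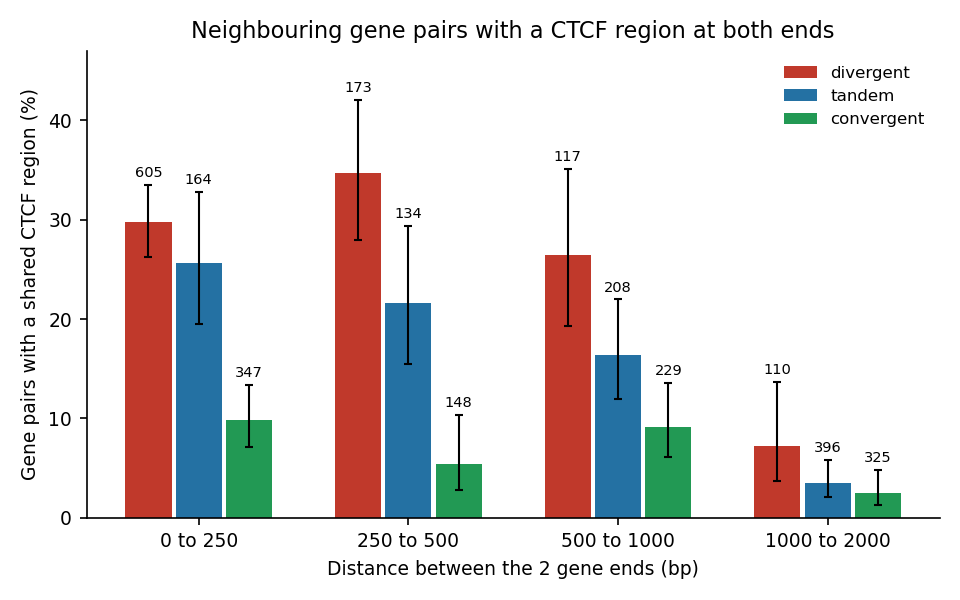
Share of neighbouring gene pairs with a shared CTCF region near both ends (y axis, percent) by distance between the ends (x axis, bp), for divergent, tandem and convergent pairs. Error bars are 95% Wilson intervals and the numbers above them are gene pairs. Convergent bars are the lowest in each bin, and divergent and tandem bars differ least, relative to their intervals, at the shortest and the longest distances.

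As a whole, regions with 2 or more gene ends did not detectably outrank those with 1, nor the reverse. Their median signal was 101 in the NMDA list (quartiles 43.3 and 285, range 18.6 to 1305) and 178 in the control list (81.1 and 467). The 1-gene regions had medians of 107 and 204. Since the lists differ in scale, signals were turned into percentile ranks within each list, where 100 is the strongest. The median rank was 53.3 against 55.0 for 1-gene regions in the NMDA list and 52.9 against 58.3 in the control list. Over all pairs of 1 member and 1 comparison region, the member ranked higher in 49.7% (95% DeLong interval 47.3 to 52.1) in the NMDA list and 48.0% (45.5 to 50.4) in the control list. Both intervals include the 50% of equal ranks. Members were more often among the weakest 25% of the control list, 24.8% against 20.3%, by 4.48 points (1.13 to 8.10). In the NMDA list that difference was 2.19 points (−1.11 to 5.76). All such intervals treat regions as independent, which neighbours are not, and cover the spread over regions, not over cultures.

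Ranks differed more clearly by arrangement than by number of genes. Divergent regions had a median signal of 65.9 in the NMDA list, tandem regions 161 and convergent regions 139. The median rank was 40.1 for divergent, 68.6 for tandem and 63.5 for convergent regions in the NMDA list, and 40.2, 70.7 and 62.0 in the control list. A divergent region outranked a tandem one in 37.6% of pairs (31.6 to 43.6) in the NMDA list and 40.1% (34.0 to 46.2) in the control list. In the replicate columns, which were not added up, it did so in 38.7% and 37.1%. Against convergent regions the share was 36.4% (29.9 to 42.9) in the NMDA list and 41.3% (34.6 to 48.0) in the control list. Tandem and convergent regions could not be told apart in rank (52.4%, 44.1 to 60.8). A difference by kind of end was also present without a second gene. In the NMDA list, 1-gene regions at a 3′ end outranked those at a start in 57.2% of pairs (55.1 to 59.4). In the control list they did so in 50.2% (48.0 to 52.3), with equal ranks inside the interval. In all, 9 pairs of classes were compared, and intervals were not widened for that number.

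The divergent regions were spread over the whole range. Of the 276, 83 (30.1%) were among the weakest 25% of the NMDA list and 73 (26.4%) among its strongest 25%. The quartiles of their rank were 22.4 and 76.4. The layout with the lowest median also held the member with the highest summed signal in the NMDA list.

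Set against 1-gene regions at the same kind of end, the layouts went in different directions. Divergent regions ranked above 1-gene regions at a start in 46.0% of pairs (42.3 to 49.6) in the NMDA list and 45.0% (41.3 to 48.8) in the control list. This small difference held in 7 of 14 other ways of processing, and in the other 7 its interval reached 50%. With only summits within 250 bp of the nearest end the NMDA share was 42.7% (38.1 to 47.3). Among regions with the summit in a promoter window it was 40.5% (34.8 to 46.1) in the NMDA list and 40.4% (34.7 to 46.2) in the control list. Tandem regions ranked above 1-gene regions at a start in 59.2% (53.9 to 64.5) and 56.1% (50.7 to 61.5). With only summits within 250 bp of the nearest end the NMDA value fell to 53.0% (46.9 to 59.0), and with genes of all types to 55.2% (49.9 to 60.4). Against 1-gene regions at a 3′ end, the other kind of end a tandem pair has, tandem regions ranked higher in 53.9% of pairs (47.7 to 60.2) in the NMDA list and 57.4% (51.1 to 63.8) in the control list. Among regions with the summit in a promoter window, tandem and 1-gene start regions did not differ detectably (50.3%, 42.4 to 58.3). Convergent regions did not differ detectably from 1-gene regions at a 3′ end (51.8%, 44.9 to 58.7).

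**Figure D3:**
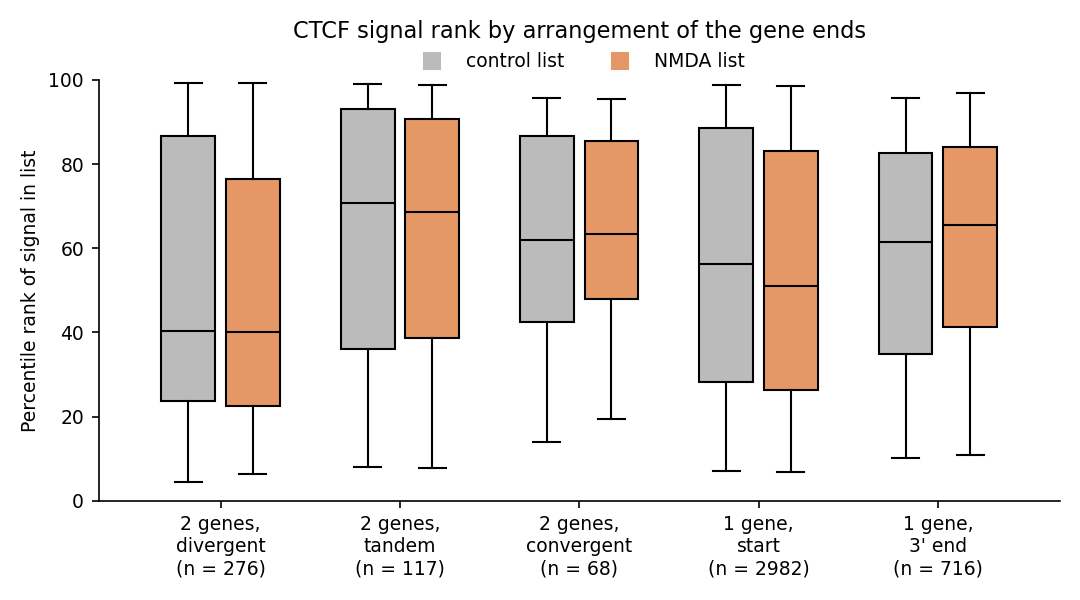
Percentile rank of signal (y axis) in the control list (grey) and the NMDA list (orange) for divergent, tandem and convergent regions and for 1-gene regions at a start or 3′ end (x axis). Boxes span the quartiles with the median as a line, and whiskers reach the 5th and 95th percentiles. The divergent medians, 40.2 and 40.1, are the lowest in both lists.

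Divergent windows held a CTCF core match less often than tandem windows. An exact core match was in 3 of 123 divergent windows (2.44%, Wilson 0.833 to 6.93), 6 of 47 tandem windows (12.8%, 5.98 to 25.2) and 65 of 986 windows of 1-gene regions at a start (6.59%, 5.21 to 8.32). Fewer matches lay within 50 bp of the summit, namely 2 of the 3 divergent, 3 of the 6 tandem and 62 of the 65 1-gene start matches. Among all 21263 promoter windows of protein-coding genes, of which some genes have several, 0.56% held one. With 1 mismatch allowed the shares were 18.7% of divergent, 36.2% of tandem, 30.2% of 1-gene start and 4.53% of all windows. The difference between divergent and tandem windows was −10.3 points (−22.8 to −2.20) for exact matches and −17.5 points (−32.9 to −2.99) with 1 mismatch allowed. The 5 letters CCCTC, on either strand, were in 80% of all 190 windows and in 69.6% of all promoters, so they told little apart. A match is a description of letters and not a measured binding site. Regions with a window need not be typical of their class. The median NMDA rank was 52.3 in divergent windows against 40.1 in all divergent regions. For 1-gene starts it was 76.5 against 51.1, and for tandem regions 68.6 in both.

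Regions whose window came closer to the core ranked higher. Among the 190 windows, those with at most 1 mismatch had a median NMDA rank of 89.7 (46 windows) and those with 2 or more had 51.4 (144 windows). The former outranked the latter in 69.6% of pairs (60.9 to 78.3) in the NMDA list and 68.0% (59.2 to 76.8) in the control list. Within divergent windows the medians were 92.1 (23 windows) and 41.3 (100 windows). In tandem windows they were 88.8 (17) and 62.2 (30). Where a close match was present, a divergent region outranked a tandem one in 49.4% of pairs, with a wide interval of 30.9 to 67.8. Where none was, it did so in 40.2% (28.8 to 51.6), so the difference between these layouts was not detectable within either set of windows. Over all windows the share was 39.1% (30.1 to 48.1) in the NMDA list, and without an exact match 39.4% (29.9 to 48.9). Both of these intervals lay below equal ranks. In the control list these shares were 42.6% (33.4 to 51.8) and 43.1% (33.6 to 52.6), with equal ranks inside both intervals. Whether core matches account for the difference was not tested. Against 1-gene start windows, divergent windows without a close match were lower (41.6%, 35.4 to 47.9), and with one the interval ran from 31.9 to 59.2.

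**Figure D4:**
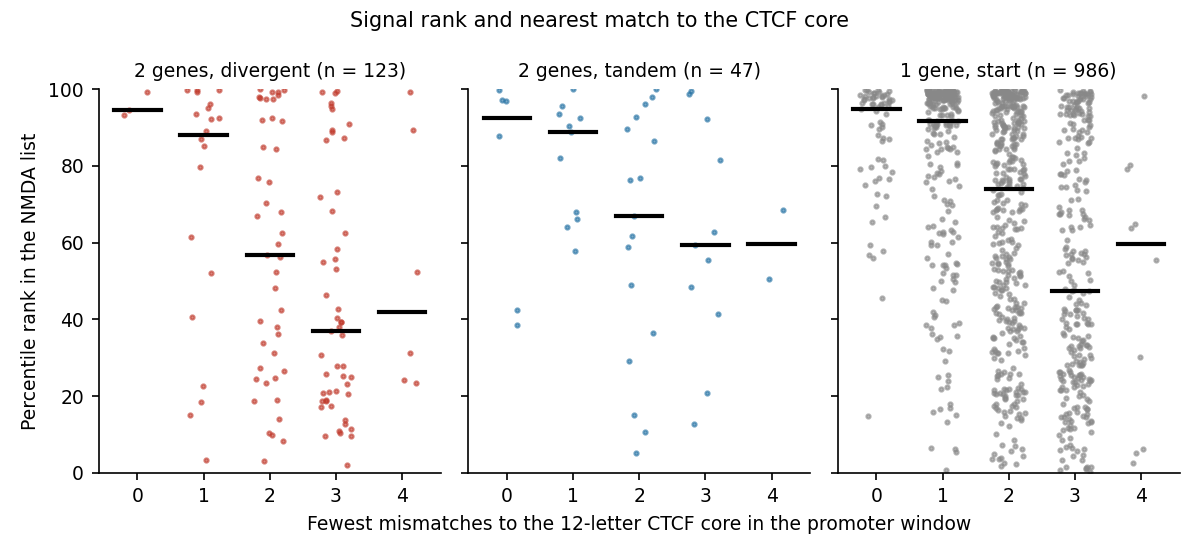
Percentile rank in the NMDA list (y axis) by the fewest mismatches to the CTCF core in the promoter window that holds the summit (x axis), for 123 divergent, 47 tandem and 986 1-gene start windows. Each point is a region, spread sideways for legibility, and bars are medians. Medians lie between 88.0 and 94.8 at 0 or 1 mismatch and are lower at 2 and 3 mismatches. At 4 mismatches (6 divergent, 2 tandem and 10 1-gene start windows) they are 41.8, 59.5 and 59.7. None of these is below the median at 3 (36.9, 59.3 and 47.4).

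The windows were rich in CpG. Divergent windows had a median ratio of observed to expected CpG of 0.87, tandem windows 0.71, 1-gene start windows 0.79 and all promoters 0.57. The median share of guanine and cytosine was 64.7% over the 190 windows, 63.3% over 1-gene start windows and 56.3% over all promoters. Windows of 1-gene start regions were thus rich in CpG as well. Whether base composition bears on the signal was not tested.

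By summed NMDA signal the strongest member, 21st in the whole NMDA list, lay between Exosc8, a subunit of the RNA exosome, which degrades and trims RNA, and Alg5, an enzyme of protein glycosylation (chr3:54734598-54736622). Its signal was 489 and 817 in the replicate columns and 1905 in the control list. Here and below, a control signal is a sum over 2 replicates, so a single replicate column is not on its scale. The summit was 4 bp from the start of Exosc8, and the starts were 175 bp apart. Its closest core match, printed above, lay 109.5 bp from the summit and had 2 mismatches. The region ranked above 99.9% of its list in NMDA and 99.8% or more in each replicate column.

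Next came a tandem pair, which was stronger in control and in the first replicate column, Adprhl2, an enzyme that removes ADP-ribose from proteins, and Tekt2, a structural protein of flagella (chr4:126320711-126323165). Its replicate signals were 608 and 674, and its control signal was 1941. A second tandem pair, Mrps16, a mitochondrial ribosomal protein, and Cfap70, a cilium protein (chr14:20392714-20394225), had 484 and 685 and a control signal of 1936, also above that of Exosc8 and Alg5. In both the summit was nearest the downstream start, 91 bp from Adprhl2 and 56 bp from Mrps16.

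The other regions among the 6 strongest were divergent. Dtl, a ubiquitin ligase adaptor in DNA replication control, and Ints7, an Integrator subunit (chr1:191575017-191577101), had starts 4 bp apart with overlapping spans. The summit lay 429 bp from the nearer of them, and the signals were 448, 659 and, in control, 1649. Slx1b, a subunit of a structure-specific nuclease, and Bola2, an iron-sulfur protein (chr7:126692470-126696717), had 491, 599 and 1658. Exd1 and Chp1 (chr2:119546463-119548293) had 459, 631 and 1557, and their summit lay 506 bp from the nearest start. So even among these 6 the summit was not always at a start.

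Tandem pairs with a core match included Lsm11, a U7 snRNP protein that processes histone messages, and Thg1l, a transfer RNA guanylyltransferase (chr11:45943623-45945663). Replicate signals were 402 and 585 and the control signal 1733, with the match 23.5 bp from the summit. Nae1, which activates the ubiquitin-like protein NEDD8, and Car7, a carbonic anhydrase, form a divergent pair with starts 38 bp apart (chr8:104533821-104535263). Its signals were 397, 366 and 1590, with the match 0.5 bp from the summit. S100a6 and S100a5, neighbouring calcium-binding proteins (chr3:90612384-90613407), had an exact match 16.5 bp from the summit and yet replicate signals of 20.1 and 50.6 and a control signal of 93.7. An exact match thus occurred at ranks from 38.6 to 99.7 in the NMDA list.

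Convergent regions reached lower maxima. The strongest lay between Trp53i13 and Git1, a GTPase-activating scaffold protein found at synapses (chr11:77506771-77508697), with signals of 300 and 361 and a control signal of 1221. Map1lc3b, the autophagosome protein LC3B, and Zcchc14 (chr8:121597718-121600951) had 324, 301 and 904. Rai1, a chromatin regulator, and Srebf1, a transcription factor of lipid synthesis (chr11:60199211-60200456), had 194, 285 and 751. The highest convergent signal, 662, compares with 1305 in divergent and 1283 in tandem regions, with fewer regions to draw a maximum from.

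The weakest regions were weak in both replicate columns. Ube2k and Smim14 had 8.20 and 10.4, Cracr2b and Pnpla2 9.02 and 9.64, and Pimreg and Pitpnm3 9.02 and 10.5. Their control signals were 283, 62.1 and 54.7. Only the first of these control values was above the control list's median of 166.

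Genes of the basic machinery of cells were counted by lists matched on gene symbols. Of all 21887 protein-coding genes, 5.89% lay at a region with 2 or more gene ends and 20.4% at a 1-gene region. Of 35 aminoacyl tRNA synthetases, which load amino acids onto transfer RNAs, 10 (28.6%) lay at a region with 2 or more gene ends. The share was 16% (8 of 50) for DNA repair genes, 14.3% (4 of 28) for RNA polymerase subunits, 12.2% (6 of 49) for proteasome genes and 11.9% (10 of 84) for cytosolic ribosomal proteins. Oxidative phosphorylation stood at 9.78% (9 of 92) and mitochondrial ribosomal proteins at 7.69% (6 of 78). Lower or similar shares were found for transmembrane proteins of unassigned function (18 of 238, 7.56%), mediator subunits (2 of 30, 6.67%), solute carriers (19 of 375, 5.07%), zinc finger proteins (19 of 465, 4.09%) and histones (3 of 103, 2.91%). These are counts without a test, and genes that sit near others have more chance to be counted.

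The lists for synapses, activity responses and chromatin looping are small, and their counts have no test. Of 51 synaptic genes 0 lay at a region with 2 or more gene ends, and 23 (45.1%) lay at a 1-gene region. Of 23 immediate early genes, which switch on within minutes of activity, 1 (4.35%) was near a region with 2 gene ends and 11 near a 1-gene region. That gene was Jund, a member of the AP-1 family, with Iqcn (chr8:70697992-70701806). Its signals were 128 and 170 in the replicate columns and 577 in control, at ranks of 87.3 and 92.6. Genes for cohesin and CTCF themselves gave 0 of 11. Of 57 clustered protocadherins 24 were counted. The 1 region on chromosome 18 described above held 21 of them, and Pcdha4, Pcdha6 and Pcdha7 each lay at a further region there, together with a predicted gene, with NMDA signals of 80.9, 64.4 and 61.7.

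Within a list the regions varied greatly. Sars2 and Mrps12, a mitochondrial seryl tRNA synthetase and a mitochondrial ribosomal protein that share a divergent start region (chr7:28741315-28742657), had signals of 320 and 295 and a control signal of 1670. Exosc6 and Aars, the alanyl tRNA synthetase, had 379 in the NMDA list and 590 in control. Terf2ip and Kars, the lysyl tRNA synthetase, had 38.6 and 50.4. These 3 regions had ranks from 22.8 to 98.1 in the NMDA list.

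Repair genes covered a similar span. Parp3, which adds ADP-ribose at DNA breaks, and Rrp9 (chr9:106475567-106477494) had signals of 260 and 296 and a control signal of 909. Rad17 with Ak6 and Taf9 had 29.9 in the NMDA list and 59.0 in control. Among respiratory chain genes, Ndufaf3, an assembly factor of complex I, and Dalrd3 (chr9:108565956-108568020) had 307, 365 and 1177, while Sdha, a subunit of succinate dehydrogenase, and Ccdc127 had 21.3 in the NMDA list and 44.0 in control.

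Ribosomal protein genes included the largest rise. Rpl36 lay at 2 regions. That shared with Micos13 (chr17:56609319-56610340) had 99.3 and 55.6 in the replicate columns and 58.3 in control, and that shared with Lonp1 (chr17:56612348-56614078) had 384, 258 and 1255. The first rose in rank from 14.01 in control to 67.2 in NMDA, and the second stayed at 99.0 and 98.4. The replicate columns put the first at 82.7 and 49.5, a gap of 33.2 points.

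Ranks changed little between the lists. Over the 658 regions control and NMDA ranks had a Pearson's r of 0.928 and a Spearman's rho of 0.927, and the replicate columns an r of 0.910 and a rho of 0.918. These describe regions of the same libraries. A move of 20 or more points upward in NMDA was seen in 23 regions (3.50%), against 5.16% of all shared regions and 3.02% of 1-gene regions. A downward move was seen in 20 (3.04%), against 2.82% of all shared regions. The replicate columns themselves were 20 or more points apart in 132 members (20.1%). Both replicate columns lay 20 or more points above the control rank in 14 members (2.13%, all shared regions 2.29%), and below it in 11 (1.67%, all shared regions 1.3%). With both columns required, members were close to the background. The shares depended on the replicate column: by the first column alone upward moves were seen in 13.2% of members, and by the second alone downward moves in 7.90%.

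**Figure D5:**
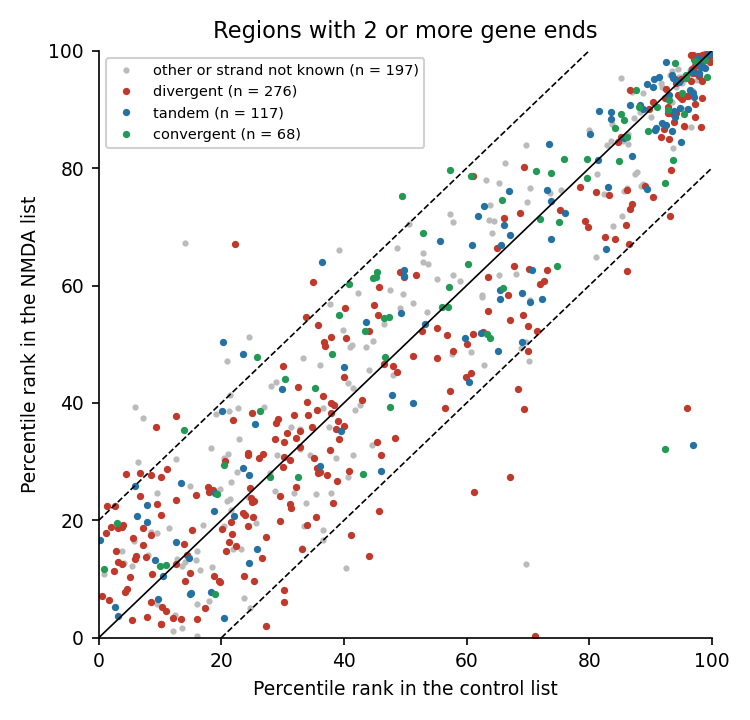
Percentile rank in the NMDA list (y axis) against the control list (x axis) for the 658 regions, coloured by arrangement. The solid line marks equal ranks and the dashed lines a move of 20 points. Most points lie between the dashed lines, with 23 regions at or above the upper line and 20 at or below the lower one.

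Downward moves were rarer than in all 1-gene regions, where 6.72% moved down, a difference of −3.68 points (Newcombe −4.98 to −1.93). Among 1-gene regions the share was 7.95% at starts and 2.09% at 3′ ends. Matched by kind of end, divergent regions (5.43%) did not differ detectably from starts (−4.86 to 0.95 points). Nor did convergent or tandem regions from 3′ ends (−2.42 to 5.83 and −2.75 to 2.68). Tandem regions (0.85%) were below starts (−8.34 to −3.16). Whether the mix of ends accounts for the difference was not tested. In 8 of the 20 members (40%) the control region also overlapped another NMDA region, as it did in 30.9% of the 862 downward moves among all shared regions and 27.7% of the 318 among 1-gene regions. Without regions of that kind the shares were 1.88% of 637 and 5.09% of 4519, a difference of −3.21 points (−4.26 to −1.70). With both replicate columns required, the difference was −1.39 points (−2.30 to −0.02). With a move of 30 points its interval included 0, and with genes of all types it was 0.45 points in the other direction.

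The largest falls were of that kind. At Nr1h2, the liver X receptor beta, and Pold1, the catalytic subunit of DNA polymerase delta, 1 control region with a signal of 878 overlapped 2 NMDA regions. The NMDA region at Pold1 (chr7:44548169-44549239) had 387, with its summit 9 bp from the control summit. The other (chr7:44549365-44550618) had 52.3, with its summit 637 bp away, and fell from a rank of 97.0 to 32.8. At Ap3s1 and Atg12, which functions in autophagy, a control region with a signal of 271 likewise overlapped NMDA regions with 91.8 and 28.7. Ube2k and Smim14 (71.2 to 0.30 in rank) and Isyna1 and Ssbp4 (92.5 to 32.2) also had a control region that overlapped another NMDA region. Their summits lay 1556 and 1626 bp from the control summits.

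In the 4 largest rises the control region overlapped no other NMDA region. After Micos13 and Rpl36 came Mrps18b and Ppp1r10, a divergent pair of a mitochondrial ribosomal protein and a regulator of protein phosphatase 1 (chr17:35914960-35916790). Its replicate signals were 80.5 and 74.3 and its control signal 74.4, at ranks of 77.5, 58.3 and 22.2. This NMDA region overlapped 2 control regions, of which the one with the nearer summit is given, and its replicate summits lay 911 bp apart. Trappc2l and Galns had 27.7 and 32.8, or 60.5 summed, and 46.5 in control. Rab4b and Mia had 57.8 and 34.2, or 92.1 summed, and 70.4 in control. In these 4 regions both replicate columns ranked above control. Whether the moves exceed the spread between control replicates cannot be known from 1 list.

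The change of rank went with the kind of end. Its median, NMDA minus control, was −1.06 points in divergent, 0.00 in tandem and 2.27 in convergent regions. The 1-gene regions showed the same order, with −1.58 at starts and 2.81 at 3′ ends. A divergent region had a larger change than a convergent one in 37.1% of pairs (29.8 to 44.3). Over all members the change was larger than in 1-gene regions in 54.3% of pairs (51.9 to 56.6). The replicate columns were themselves offset, by a median of 6.44 points, first minus second, in these 658 regions and 4.63 points in 1-gene regions. That offset has a sign and is not a replicate spread. Whether changes of 1 to 3 points exceed such a spread cannot be known from 1 control list.

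Members were slightly wider than 1-gene regions in the NMDA list, with a median of 1399 bp against 1326 bp. They were wider in 53.3% of pairs (51.01 to 55.6). In the control list the medians were 1341 and 1361 bp and the share was 50.2% (47.9 to 52.6), so the difference was in 1 list. Convergent regions had the largest median, 1642 bp in NMDA and 1419 bp in control. They were wider than 1-gene regions at a 3′ end in 58.8% of pairs (52.1 to 65.6) in the control list and in 56.0% (49.2 to 62.9) in the NMDA list, where the interval includes 50%. Width rose with rank among members (r = 0.536, rho = 0.568).

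The widest region, 4414 bp, lay at Cntnap1, which builds the junctions of axon and myelin, and Ccr10, a chemokine receptor (chr11:101173229-101177642). It overlapped 2 control regions, of which the one with the nearer summit was 2669 bp wide. Slx1b and Bola2 followed with 4248 bp and a control width of 4506 bp. Stac3 and Ndufa4l2 (chr10:127506305-127510273) had 3969 and 2591 bp.

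Most summits were placed alike in both conditions. The control and NMDA summits of a member lay a median of 20.0 bp apart, as in 1-gene regions. They were more than 100 bp apart in 84 members (12.8%), against 6.94% of all shared regions and 14.3% of 1-gene regions, a difference from the latter of −1.54 points (−4.09 to 1.39). The 2 replicates of the NMDA list had summits over 100 bp apart in 213 members (32.4%), against 20.8% of all shared regions and 29.5% of 1-gene regions. As whole classes, both kinds of gene-end regions were thus above the background, with no detectable difference between 1 and 2 or more gene ends. The control to NMDA distance went with the kind of end. It exceeded 100 bp in 16.3% of divergent regions and 16.4% of 1-gene regions at a start. In convergent regions the share was 5.88% and in 1-gene regions at a 3′ end 6.15%, neither above the background. Divergent regions exceeded convergent ones by 10.4 points (1.27 to 16.4). Tandem regions had such control to NMDA distances less often than 1-gene regions at a start, 8.55% against 16.4%, a difference of −7.88 points (−12.0 to −1.28). Compared with 1-gene regions at a 3′ end, where the share was 6.15%, the difference was 2.40 points and its interval, −1.93 to 9.06, included 0.

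The largest distances were at Sptbn4, a spectrin of axon initial segments, and Blvrb (chr7:27446976-27448381), 1897 bp, and at Slc39a11 and Cog1 (chr11:113649392-113650884), 1702 bp. In both the control region also overlapped another NMDA region. The control regions were 3420 and 3250 bp wide and the NMDA regions 1406 and 1493 bp.

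Membership depended little on which summit was used. By the control summit 637 of 658 regions (96.8%) again had 2 or more gene ends, and by both replicate summits 593 (90.1%) did.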

How the data were processed

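The authors deposited 1 region list per condition, which file names tie to the irreproducible discovery rate (IDR) procedure. FastQC, Trimmomatic, BWA, SAMtools and MACS2 and the builds mm10 and GRCm38.p6 are named, per the submitters' processing notes. Not given in the sources used here are versions, settings and the use of input in calling. The deposited −log10 p-value was the signal, and the deposited score (reproducibility) was used only as a stricter alternative. In the NMDA list the signal is the sum of 2 replicate columns, whose replicates are not named. Column 10 of the list, used as summit, was within 1 bp of the mean of the replicate summits in 74.9% of members and over 100 bp off in 18.8%. No file of the input libraries was analysed here.

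Regions on assembled chromosomes were kept (36186 NMDA and 33815 control regions). Overlap was at least 1 bp. A member's counterpart was the overlapping control region with the nearest summit. Gene spans of 21887 protein-coding genes came from RefSeq (GRCm38.p6), and strand, known for 79.9% of them, from the RefSeq promoter table. Chromosome 18 has no strand there. The 2 nearest ends of different genes formed a pair. Only the outer ends of gene spans were used, not exons or introns. No p-value was computed, because each condition is 1 list. Shares have 95% Wilson intervals, differences Newcombe intervals, and rank comparisons DeLong intervals (numpy 2.4.6, scipy 1.17.1, Python 3.11.15). Region placement, overlap and intervals were tested on simulated data. Regions were named by a rule: the 6 strongest, up to 4 of each arrangement, the weakest, those with the largest moves, distances and widths, and up to 2 of each gene list. Those with a core match, the lowest of some lists, the second regions at Rpl36 and at Pold1, Chd1l and Fmo5, Rad1 and Brix1, and Brms1 and Rin1 were added after their values were seen. A few regions that the rule would name are not reported here. The members and the lists were chosen with earlier results of these data known. The alternatives placed gene ends at other distances, changed the overlap, gene set, score, summit and replicate column, and moved the rank threshold.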

Additional observations from a re-analysis of the deposited data

How the results depend on the processing

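Of 176 recomputed values, 128 were kept. A comparison counted as kept with the same direction and the same side of its interval's threshold, a count of members within 1.5 times the reported one, and a share inside the reported 95% interval. Divergent regions ranked below tandem regions in all 14 alternatives run for that comparison (36.2% to 41.4% of pairs). The number of members was 337 with gene ends within 500 bp, 1205 within 2 kb, 1366 with genes of all types and 422 without overlapping or nested pairs. The share of members above 1-gene regions in rank passed to the other side of 50% within 2 kb (51.2%), with established gene names (50.3%), with a stricter reproducibility score (50.3%) and at 3′ ends (51.03%). It lay clearly below 50% with genes of all types (48.1%) and within 250 bp of an end (46.7%). Leaving out 1 replicate column gave 49.3% to 50.5%. The wider NMDA regions were no longer separable without overlapping pairs (52.6%), at starts (52.8%), at 3′ ends (54.6%) or within 250 bp (53.0%).

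Divergent regions could not be told from 1-gene start regions with ends within 500 bp (46.3%) or 2 kb (46.9%), a reciprocal overlap of 50% (46.7%), summits within 100 bp (46.4%), established names (47.2%) or the stricter score (47.5%), and leaving out 1 replicate column gave 45.5% to 46.9%. Tandem regions lost their difference from them with genes of all types (55.2%) and within 250 bp (53.0%). Convergent regions were at 61.7% against 1-gene 3′ ends with ends within 500 bp, and at 49.8% within 2 kb, 49.5% without overlapping pairs and 47.6% with the stricter score. The divergent share was 67.3% within 500 bp, 44.0% within 2 kb and 67.9% with genes of all types.

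Upward moves were 2.08% within 500 bp, 2.11% with the stricter score, 17.5% at 10 points and 0.76% at 30 points, and 3.65% to 13.2% with 1 replicate column left out. Downward moves were 1.81% with reciprocal overlap, 1.92% with summits within 100 bp, 6.08% with genes of all types, 16.7% at 10 and 1.37% at 30 points, 1.88% with control regions overlapped by 1 NMDA region (an alternative chosen after seeing the data), and 3.34% to 7.90% with 1 replicate column left out. The difference in downward moves from 1-gene regions was 0.45 points with genes of all types and −0.89 at 30 points, and the summit difference was 3.71 points with genes of all types. Core matches were in 24.2% of windows with 1 mismatch allowed and in 80% for CCCTC alone. The cause of these changes was not tested.

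No paired analysis was possible because each condition is 1 list, the control list has no replicate columns and no test between groups was made. Depth is unknown, so weak regions missed in 1 condition cannot be weighed.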

Other observations

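Some adjoining genes held a pair of CTCF regions. The same nearest genes recurred at 2 members in 9 of 649 gene pairs. At Brms1 and Rin1, whose ends are 87 bp apart, a region with a signal of 316 in the NMDA list and 504 in the control list (chr19:5049789-5052367) lay beside a weaker one with 42.3 and 60.0 (chr19:5048256-5049507). Each had a control region of its own.

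Regions found in 1 list alone were also counted by layout, without a test of the order. Of divergent gene pairs with ends up to 2 kb apart, 6.57% had an NMDA-only region near both ends, compared with 1.77% of tandem and 0.48% of convergent pairs. Control-only regions were at 4.38%, 1.22% (Wilson 0.68 to 2.17) and 0.76% (0.39 to 1.498), and the tandem and convergent intervals overlap.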
